A study of Mus musculus with 24 samples.

Results

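The comparison set knockdown of Cdk8 against knockdown of Med12 in R1 mouse embryonic stem (ES) cells on day 13 and asked which genes separate loss of the kinase from loss of its activator. It used the 12 arrays labelled with a Cdk8 or a Med12 hairpin on day 13, of 24 arrays in the series. The tested cells carried lentiviral shCdk8-1 or shCdk8-2, and the cells they were set against carried shMed12-1 or shMed12-2, with 3 biological replicates for each hairpin. The labels give no other change to the R1 cells, and RNA was taken 13 days after infection. Another 3 arrays of cells with the non-targeting hairpin shNTC on day 13 gave the control level of each gene. The labels do not say whether replicates came from separate cultures or infections, and the spread behind each p-value may therefore be technical. Each array compared the Cy5-labelled RNA of the cells with a Cy3-labelled universal reference RNA made from several mouse cell lines. A level below is the log2 ratio of the cells to that reference, and a difference is the mean of the Cdk8 hairpin means minus the mean of the Med12 hairpin means.

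CDK8 is a cyclin-dependent kinase that forms, with cyclin C, MED12 and MED13, the kinase module that docks on Mediator, a large complex bridging transcription factors and RNA polymerase II. MED12 contacts cyclin C and activates the kinase, and it also joins transcription factors to the module. In vertebrates the paralogue CDK19 can take the place of CDK8 in the module.

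Several features of the arrays bear on all values. All 6 Cdk8 arrays of day 13 lay at position 3 of their slides and all 6 Med12 arrays at position 4, so slide position and knockdown cannot be told apart. Slides 3 to 6 each held 1 Cdk8 and 1 Med12 array of day 13, which gave 4 differences within a slide. These weight the hairpins unequally: shCdk8-1 was on slides 3 to 5 and shCdk8-2 on slide 6, shMed12-2 on slide 3 and shMed12-1 on slides 4 to 6. On shMed12-1 replicate 3 the ratios were compressed, with a slope of 0.79 on the other replicates, against 0.97 to 1.12 on the other 14 arrays of day 13. The background estimate of that array rested on 7 spots with a net intensity under -50. With these spots left out of the estimate (below, the refitted background, chosen after seeing the data) its slope was 1.01. Scaling all arrays to one spread of ratios instead, where that array had a median size of 0.317 against 0.454 to 0.495 on the others, turned the sign of Esrrb, Col1a1, Ankrd1, Mest, Stra8, Dnmt3a and S100a6, which are described below. On shCdk8-2 replicate 3, 48.9% of spots were well above background in Cy5, against 57.4% to 72.5% on the other 11 arrays. The ES cell label was borne out by the levels of Zfp42, at 8.82 with Cdk8 knockdown, 8.27 with Med12 knockdown and 9.03 with shNTC, and of Sox2, at 7.0, 6.30 and 7.12 in the same order. Both are markers of pluripotent cells.

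Both targets were lowest in the cells that carried their own hairpins. Cdk8 stood at -1.37, -1.53 and -1.54 with shCdk8-1 and at -1.27, -1.16 and -1.07 with shCdk8-2, against -0.48, -0.47 and -0.36 with shMed12-1 and -0.69, -0.70 and -0.71 with shMed12-2. The 6 Cdk8 arrays lay below the 6 Med12 arrays, with a difference of -0.75 (SE 0.05, adjusted p = 2.64e-09). A further Cdk8 probe gave -0.44. Med12 ran from -0.95 to -0.85 (median -0.87) with Cdk8 knockdown, against -2.02 to -1.76 (median -1.96) with Med12 knockdown. Its groups did not overlap, and the difference was 1.04 (SE 0.05, adjusted p = 4.34e-11). A further Med12 probe gave 1.00. Against shNTC, Cdk8 fell by 0.79 with Cdk8 knockdown and Med12 fell by 0.94 with Med12 knockdown.

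The rest of the kinase module differed little. Cdk19, the paralogue of Cdk8, was lower with Cdk8 knockdown, at -1.81 to -1.71 against -1.61 to -1.15 with Med12 knockdown (difference -0.24, SE 0.07, adjusted p = 0.0165), called in 2 of the 4 pairs of a Cdk8 with a Med12 hairpin. With slide as a block in the model this was -0.24 and no longer called (adjusted p = 0.0728). Cyclin C (Ccnc) differed by -0.01 and Med13l by 0.07, neither called. Of 23 core Mediator subunits, 3 were higher and 3 lower with Cdk8 knockdown, with a median difference of 0.03. This was 26.1% called, against 18.2% over all genes. The 3 lower ones were Med11 (-0.18), Med31 (-0.17) and Med10 (-0.16).

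Of 22394 genes, 4073 differed between the knockdowns at an adjusted p under 0.05 (18.2%), 1904 higher with Cdk8 knockdown (8.5%) and 2169 lower (9.69%). The median difference over all genes was 0.00049. In all 4 hairpin pairs 413 genes passed in the same direction (1.84%), 191 higher (0.853%) and 222 lower (0.991%). The 6 Cdk8 arrays lay wholly above the 6 Med12 arrays for 518 genes (2.31%) and wholly below for 586 (2.62%), 4.93% of genes together. Differences were modest in size: 38 of 22394 genes differed by at least 1 on the log2 scale. The fit treats the 3 arrays of a hairpin as replicates. With the 4 hairpin means as the replicates, 2 against 2, limma called 0 genes, and 1330 had an unadjusted p under 0.05. The hairpins of 1 target also differed: over all genes, the SD of shCdk8-1 minus shCdk8-2 was 0.19 and that of shMed12-1 minus shMed12-2 was 0.26, against 0.17 for Cdk8 minus Med12 knockdown. The last value compares means of 2 hairpins and the others single hairpins, so the SDs are not like for like.

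Set against shNTC, the genes that separated the knockdowns lay farther from the control with Med12 knockdown. Both comparisons use the same 3 shNTC arrays, and the genes were chosen for their difference, so the values are a description. Among the 222 genes lower in all 4 pairs, 57 were called higher and 38 lower than shNTC with Cdk8 knockdown, whereas 189 were called higher and 1 lower with Med12 knockdown. Their median difference from shNTC was 0.03 with Cdk8 knockdown and 0.47 with Med12 knockdown. Among the 191 higher genes, 60 were called higher and 24 lower than shNTC with Cdk8 knockdown, against 1 higher and 144 lower with Med12 knockdown (medians 0.07 and -0.33). Over all genes, 12.4% were called against shNTC with Cdk8 knockdown (6.25% higher, 6.14% lower) and 20.7% with Med12 knockdown (10.5% higher, 10.2% lower), and the median size of the difference was 0.0857 and 0.103.

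**Figure D1:**
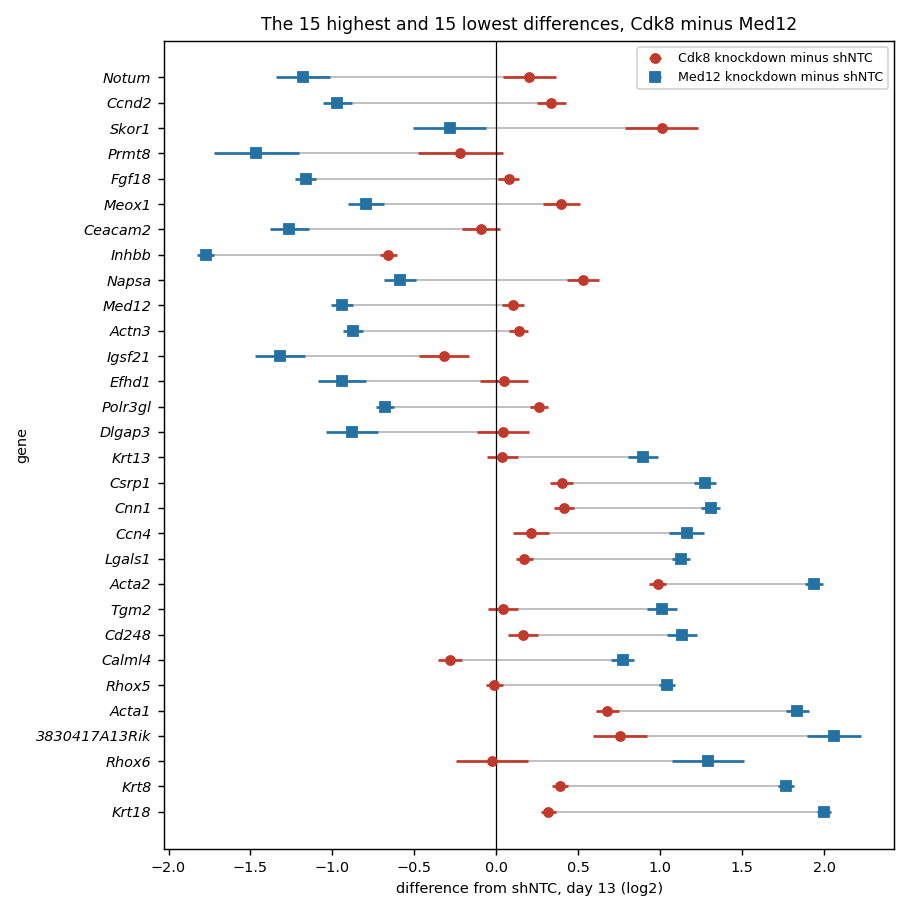
Difference from shNTC on day 13 (log2, bars show the SE of the fit) for the 15 genes with the highest and the 15 with the lowest difference between Cdk8 and Med12 knockdown that passed in all 4 hairpin pairs without overlap. Only genes with a symbol were eligible. Red circles are Cdk8 knockdown and blue squares Med12 knockdown. Med12 itself is among the highest. Of the 30 genes, 29 were called against shNTC with Med12 knockdown and 15 with Cdk8 knockdown.

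Among genes that passed in all 4 pairs, the lowest differences belonged to the keratins of simple epithelia, Krt18 and Krt8, whose proteins pair into filaments. Krt18 stood at -0.88, -0.93 and -0.95 with shCdk8-1 and at -0.77, -0.83 and -0.94 with shCdk8-2, against 1.43, 1.38 and 1.40 with shMed12-1 and 0.17, 0.28 and 0.15 with shMed12-2. The Med12 hairpins differed from each other in size, yet every Cdk8 array lay below every Med12 array, and the shNTC arrays lay lower still, at -1.22 to -1.17. The difference was -1.68 (SE 0.04, adjusted p = 2.72e-17). Krt8 ran from -0.81 to -0.69 with Cdk8 knockdown, against 0.09 to 1.19 with Med12 knockdown, a difference of -1.38 (SE 0.04, adjusted p = 8.12e-15). Against shNTC, Krt18 and Krt8 rose by 0.32 and 0.39 with Cdk8 knockdown and by 2.00 and 1.77 with Med12 knockdown. In bulk RNA, fewer cells with a transcript and less of it in each cell cannot be told apart. The Cy3 reference signal itself was higher by 0.52 for Krt18 and by 0.31 for Krt8 on the Cdk8 arrays (adjusted p = 0.000195 and 0.02). In the Cy3 channel alone 11 of 22394 genes were called, among them also Igsf21 (0.31, adjusted p = 0.01) and Stra8, both described below.

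**Figure D2:**
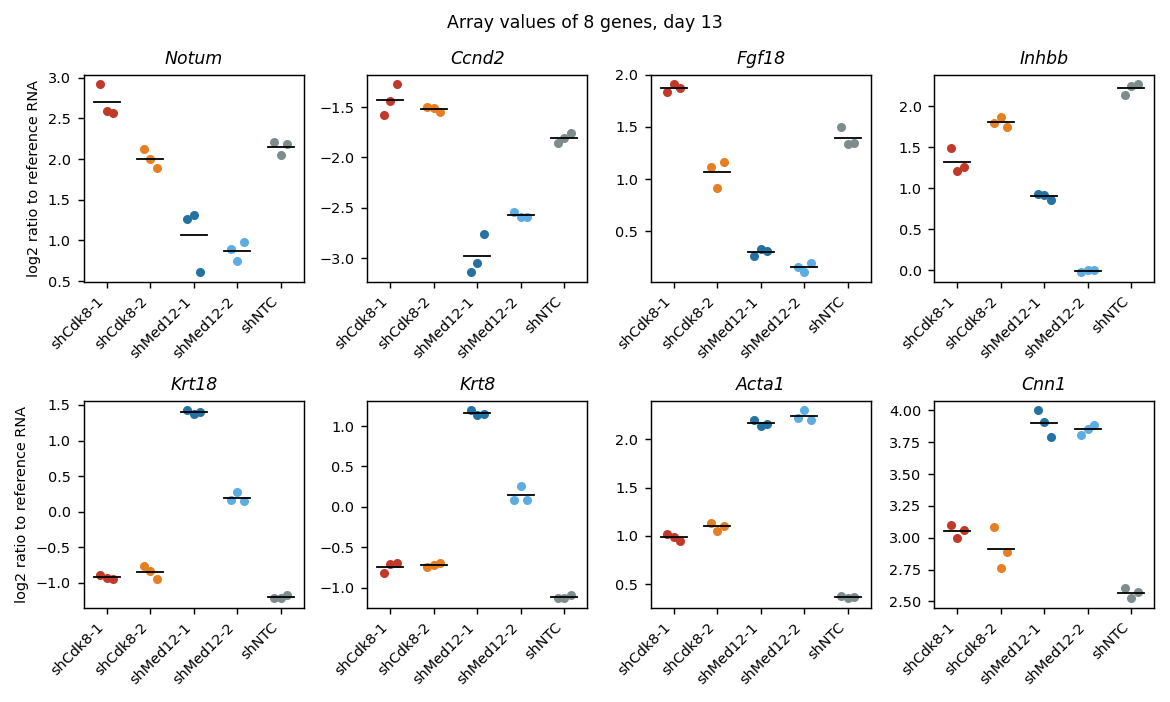
Log2 ratio of cells to reference RNA on each array of day 13 for 4 genes that were higher with Cdk8 than with Med12 knockdown (top) and 4 that were lower (bottom), by hairpin. Points are arrays, 3 per hairpin, and black lines their means. The Cdk8 arrays do not overlap the Med12 arrays for any of the 8 genes, which were taken from genes chosen for that.

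Of 23 measured keratins and epithelial junction genes, 13 were lower and 1 higher with Cdk8 knockdown, with a median of -0.26 (over all genes 9.69% lower, 8.5% higher, median 0.00049). Krt7, another simple epithelial keratin, ran from 0.03 to 0.33 (median 0.19) with Cdk8 knockdown, against 0.40 to 2.52 (median 1.42) with Med12 knockdown, a difference of -1.25 (SE 0.07) called in 3 of 4 pairs. Krt20 differed by -1.20, Krt19 by -0.80 and, outside the list, the keratin Krt13 by -0.86. Junction genes moved less. The desmosomal Pkp2 differed by -0.43, whereas E-cadherin (Cdh1, 0.05), Epcam (0.08) and the tight junction scaffold Tjp1 (0.00) were not called. The 1 higher member was the integrin gene Itgb4 at 0.18. After the refitted background 16 were lower and 1 higher (median -0.40).

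Trophectoderm genes shared Krt7, Krt8, Krt18 and Krt19 with this list. Of 23 measured, 11 were lower and 3 higher, against 9.69% and 8.5% over all genes (median -0.18, and -0.28 after the refitted background). The mean level of the list with shCdk8-2 (1.01 to 1.10) overlapped that with shMed12-2 (1.01 to 1.09), whereas shCdk8-1 (0.84 to 0.93) lay lower and shMed12-1 (1.37 to 1.80) higher. Besides keratins, the lower genes included the X-linked homeobox gene Rhox6, at 3.40 to 3.96 with Cdk8 knockdown against 4.24 to 5.78 with Med12 knockdown (difference -1.32, SE 0.18, adjusted p = 1.96e-05). Another gene of the family, Rhox9, differed by -0.79. The trophoblast regulators Gata2 (-0.81), Gata3 (-0.64) and Hand1 (-0.39) were lower too, each called in 2 of the 4 pairs. The trophectoderm factor Cdx2 went the other way, at 3.83 to 4.72 against 2.81 to 4.37 with Med12 knockdown (difference 0.77, SE 0.21, adjusted p = 0.0131). Its arrays overlapped, and after the refitted background its difference was 0.51. The lowest Med12 value, 2.81, was on shMed12-1 replicate 3 and became 4.35 with that background. The other shMed12-1 arrays (4.05 and 4.37) lay above the shCdk8-1 arrays (3.83 to 3.98).

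Smooth muscle and contractile genes formed the list with the largest share of calls. Of 28 measured, 24 were lower with Cdk8 knockdown and 0 higher, 13 of them in all 4 pairs, with a median of -0.40. Over all genes 9.69% were lower and 8.5% higher, and 0.991% were lower in all 4 pairs. A model with a slide term called 19 lower and 0 higher (median -0.39, over all genes 6.69% lower and 6.45% higher). Skeletal actin (Acta1) stood at 1.02, 0.99 and 0.95 with shCdk8-1 and 1.14, 1.05 and 1.11 with shCdk8-2, against 2.20, 2.14 and 2.16 with shMed12-1 and 2.22, 2.30 and 2.20 with shMed12-2. Both hairpins of each target were close to each other, and the shNTC arrays lay lowest, at 0.35 to 0.38. The difference was -1.16 (SE 0.06, adjusted p = 1.59e-11). Smooth muscle actin (Acta2) ran from -2.38 to -1.49 with Cdk8 knockdown, against -1.12 to -0.82 with Med12 knockdown, a difference of -0.95 (SE 0.04, adjusted p = 6.53e-12). Further Acta2 probes gave -0.31 and -0.97. Calponin 1 (Cnn1), an actin-binding protein of smooth muscle, ran from 2.76 to 3.1 against 3.79 to 4.0, a difference of -0.89 (SE 0.05, adjusted p = 6.17e-11). The LIM protein gene Csrp1 differed by -0.87, leiomodin Lmod1 by -0.81, the tropomyosin gene Tpm2 by -0.75 and transgelin (Tagln) by -0.70. Members that were not called were Myl7 (0.28), Myh11 (-0.03), Tnni1 (-0.12) and Tnnt2 (-0.46). The actinin gene Actn3, which was not on the list, went the other way. It ran from 1.38 to 1.67 with Cdk8 knockdown, against 0.38 to 0.64 with Med12 knockdown.

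These genes were not at the control level with Cdk8 knockdown. The median difference of the list from shNTC was 0.31 with Cdk8 knockdown and 0.70 with Med12 knockdown. Acta1 rose by 0.68 and 1.84, Acta2 by 0.98 and 1.94, and Cnn1 by 0.41 and 1.31 against shNTC with Cdk8 and Med12 knockdown. The mean level over the 28 genes ran from -0.31 to -0.23 on the 6 Cdk8 arrays, against 0.16 to 0.21 on the 6 Med12 arrays and -0.55 to -0.50 on the shNTC arrays, with no overlap. Of 25 fibroblast and feeder markers, 4 were lower with Cdk8 knockdown and 1 higher (median -0.14, and -0.04 after the refitted background). The share called (20%) was near that over all genes (18.2%). Their mean level ran from -4.21 to -3.92 on the Cdk8 arrays, -4.15 to -3.65 on the Med12 arrays and -4.40 to -4.17 on the shNTC arrays. The collagen gene Col1a1 differed by -0.63 (further probes -0.11 and -0.38) and Timp3 by -0.65, whereas Dcn (-0.01), Vim (0.07) and Thy1 (0.04), other fibroblast markers, were not called. The part of such cells in the contractile result was not tested.

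**Figure D3:**
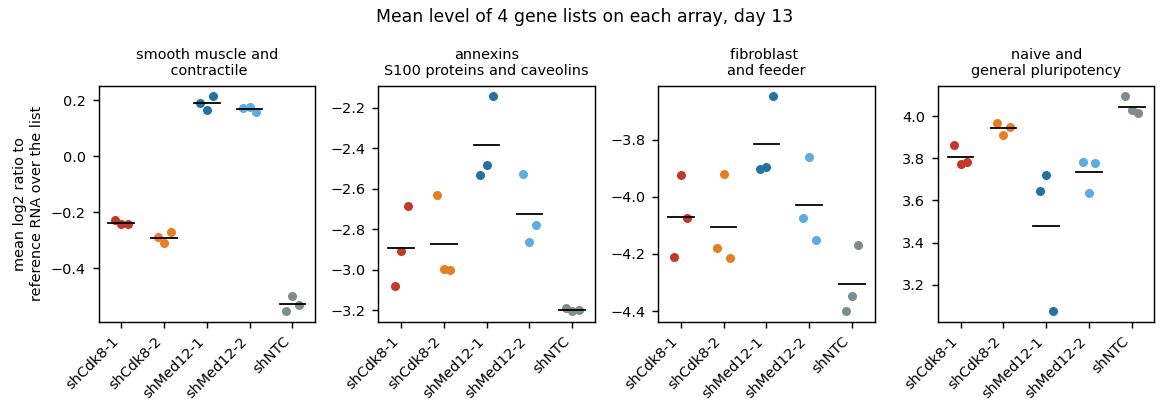
Mean log2 ratio to the reference RNA over the genes of 4 lists on each array of day 13, by hairpin (points are arrays, black lines hairpin means). Contractile genes separate the Cdk8 arrays (-0.31 to -0.23) from the Med12 arrays (0.16 to 0.21), whereas the annexin, fibroblast and pluripotency lists overlap. The lowest pluripotency value (3.08) belongs to shMed12-1 replicate 3.

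Many contractile genes carry a CArG box, the element bound by serum response factor, near their start. RefSeq promoter windows (GRCm38.p6, 250 bases before to 50 after a start) were found for 12 of the 13 genes lower in all 4 pairs, and 3 of the 12 (25.0%) held a CArG box, against 488 of 27025 genes with a window (1.81%). The box was searched as CC, then 6 bases that are each A or T, then GG, which reads the same on both strands. Among the other contractile genes measured, 2 of 12 held one (Actc1 and Myl7). The windows of Acta2, Cnn1, Lmod1 and Csrp1 held no exact match, and boxes that depart from this pattern were not searched. The 250 bases before the start are shown for the 3 genes, with the box in capitals, since they are contractile genes of this comparison whose promoters hold the motif. For Acta1 the window is chr8:123894776-123895025 on the minus strand, for Cnn2 chr10:79988350-79988599 on the plus strand, and for Myl6 chr10:128493010-128493259 on the minus strand, at one of its annotated starts. The box begins 73, 56 and 50 bases before the start.
Acta1: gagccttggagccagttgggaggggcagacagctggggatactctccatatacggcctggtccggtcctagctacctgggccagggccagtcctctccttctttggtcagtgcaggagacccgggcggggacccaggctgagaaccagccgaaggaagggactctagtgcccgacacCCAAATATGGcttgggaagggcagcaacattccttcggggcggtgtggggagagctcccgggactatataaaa
Cnn2: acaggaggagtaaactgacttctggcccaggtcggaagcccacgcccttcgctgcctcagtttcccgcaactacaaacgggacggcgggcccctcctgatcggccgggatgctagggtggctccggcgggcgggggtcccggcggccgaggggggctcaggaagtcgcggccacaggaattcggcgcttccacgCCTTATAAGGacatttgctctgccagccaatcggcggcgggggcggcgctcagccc
Myl6: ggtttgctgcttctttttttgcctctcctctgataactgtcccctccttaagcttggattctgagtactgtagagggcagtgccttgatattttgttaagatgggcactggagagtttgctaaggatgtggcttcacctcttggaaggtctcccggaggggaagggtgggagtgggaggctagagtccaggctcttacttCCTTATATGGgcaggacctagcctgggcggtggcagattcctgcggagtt
Cnn2, which encodes calponin 2, differed by -0.52 (SE 0.05) and the myosin light chain gene Myl6 by -0.28 (SE 0.06).

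Calcium-dependent membrane proteins and caveolins followed. Of 25 annexin, S100 and caveolin genes, 14 were lower with Cdk8 knockdown and 0 higher (median -0.34, over all genes 9.69% lower, 8.5% higher). In all 4 pairs 3 were lower (over all genes 0.991%). The mean level of the list overlapped, at -3.08 to -2.63 on the Cdk8 arrays against -2.86 to -2.145 on the Med12 arrays. Annexin A2 (Anxa2) ran from -4.29 to -3.89 with Cdk8 knockdown, against -3.78 to -2.85 with Med12 knockdown, a difference of -0.77 (SE 0.06, adjusted p = 6.66e-09). Anxa3 differed by -0.70, Anxa5 by -0.64 and S100a6 by -0.72. For S100a6 the groups overlapped, since its shMed12-2 arrays (-4.90 to -4.81) lay within the range of the Cdk8 arrays (-5.32 to -4.79). Other genes among the 15 lowest were Tgm2 (-0.97), a transglutaminase that crosslinks proteins, the galectin gene Lgals1 (-0.95), Ccn4 (-0.95), a matricellular protein first found downstream of WNT, Cd248 (-0.97), a membrane protein of stromal cells, and Calml4 (-1.05). For Tgm2 2 further probes gave -0.21 and -0.33, and for Cd248 a further probe gave -0.60. 3830417A13Rik, a gene without a role assigned here, differed by -1.31, and a further probe gave -0.69.

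Genes that growth factors switch on at once had more calls lower than higher. Of 36 immediate early genes, 17 were lower and 3 higher (median -0.20), against 9.69% and 8.5% over all genes. Gadd45b, which encodes a stress sensor, ran from -0.72 to -0.31 with Cdk8 knockdown, against 0.01 to 0.15 with Med12 knockdown, a difference of -0.62 (SE 0.05, adjusted p = 8.26e-08). Ier5 differed by -0.64 and the transcription factor gene Atf3 by -0.52, each in all 4 pairs. Srf itself differed by -0.27. Fos (-0.25) and Egr1 (0.09) were not called. Of 17 YAP-responsive genes, 8 were lower and 2 higher (median -0.22), among them the tissue factor gene F3 (-0.65), the kinase gene Lats2 (-0.56, further probes -0.47 and -0.23) and Ankrd1 (-0.52). Ccn1 (-0.48) is on both lists. The model with a slide term called 4 of the YAP-responsive genes lower and 1 higher (over all genes 6.69% and 6.45%).

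Basement membrane and endoderm genes split. The collagen IV chains Col4a1 (-0.78, SE 0.05) and Col4a2 (-0.74, SE 0.06) were lower in all 4 pairs. Against shNTC, Col4a1 fell by 0.48 with Cdk8 knockdown and rose by 0.30 with Med12 knockdown, by 0.58 with shMed12-1 and 0.03 with shMed12-2. The homeobox gene Rhox5 ran from 0.75 to 0.98 with Cdk8 knockdown, against 1.46 to 2.39 with Med12 knockdown (difference -1.06, SE 0.04). Of 33 primitive and visceral endoderm genes 6 were lower and 1 higher, a share called (21.2%) near that over all genes (18.2%). The endoderm transcription factor genes Gata6 (-0.17), Gata4 (-0.03), Sox17 (0.01) and Sox7 (-0.07) were not called.

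Among the genes higher with Cdk8 than with Med12 knockdown, several encode secreted signals or their regulators. Notum, an enzyme that removes the lipid from WNT proteins, had the highest difference among genes that passed in all 4 pairs. It stood at 2.92, 2.59 and 2.57 with shCdk8-1 and 2.12, 2.00 and 1.88 with shCdk8-2, against 1.27, 1.31 and 0.61 with shMed12-1 and 0.89, 0.75 and 0.98 with shMed12-2. The shNTC arrays, at 2.05 to 2.20, lay among the Cdk8 arrays and above the Med12 arrays. The difference was 1.38 (SE 0.13, adjusted p = 2.85e-07), made of 0.20 against shNTC with Cdk8 knockdown, not called, and -1.18 with Med12 knockdown. Fgf18, a fibroblast growth factor, ran from 0.92 to 1.91 with Cdk8 knockdown, against 0.11 to 0.34 with Med12 knockdown and 1.34 to 1.5 with shNTC (difference 1.24, SE 0.05, adjusted p = 1.31e-12). Inhbb, which encodes an activin subunit, ran from 1.21 to 1.87 against -0.02 to 0.93. Both lay below shNTC (2.14 to 2.28), and the difference was 1.12 (SE 0.04, adjusted p = 2.61e-13). A further probe for Inhbb gave 0.17 (adjusted p = 0.0299).

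Ccnd2, the gene of the G1 cyclin D2, ran from -1.58 to -1.27 with Cdk8 knockdown, against -3.14 to -2.54 with Med12 knockdown. The shNTC arrays lay between, at -1.85 to -1.76. The difference was 1.30 (SE 0.07, adjusted p = 7.16e-11), and 2 further probes gave 1.14 and 1.28. Against shNTC, Ccnd2 rose by 0.33 with Cdk8 knockdown and fell by 0.97 with Med12 knockdown. Other cell cycle regulators were Cdkn1c, a CDK inhibitor (0.67), E2f2 (0.36) and Rb1 (0.36), which were higher, and the inhibitors Cdkn2b (-0.58), Cdkn2a (-0.43) and Cdkn1a (-0.30), which were lower. In all 6 were higher and 4 lower of 28 measured, with a median of 0.00 (over all genes 8.5% higher, 9.69% lower).

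Skor1, which encodes a SKI family corepressor, was the exception among the 15 highest genes in that Med12 knockdown was not called against shNTC (-0.28), while Cdk8 knockdown rose by 1.01. Its levels ran from 2.87 to 3.37 with Cdk8 knockdown, against 1.24 to 2.08 with Med12 knockdown (difference 1.29, SE 0.18). Napsa, an aspartic protease gene, moved on both sides: it rose by 0.53 with Cdk8 knockdown (0.92 above shNTC with shCdk8-1, 0.14 with shCdk8-2) and fell by 0.59 with Med12 knockdown (difference 1.11). The arginine methyltransferase gene Prmt8 differed by 1.24 in this fit but by 0.75 in the ratios of the scanner software, where it was not called (adjusted p = 0.11). Meox1, a mesodermal homeobox gene, differed by 1.19, the adhesion gene Ceacam2 by 1.17, the actinin gene Actn3 by 1.01, the immunoglobulin superfamily gene Igsf21 by 1.00, Efhd1 by 0.99, the RNA polymerase III subunit gene Polr3gl by 0.94 and the postsynaptic scaffold gene Dlgap3 by 0.92. Further probes gave 0.59 for Meox1 and 0.22 for Efhd1.

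WNT genes did not move as a group: of 29 measured targets and antagonists, 6 were higher and 6 lower (median 0.03), and 6 and 1 in the model with a slide term. Over all genes 8.5% were higher and 9.69% lower, and 6.45% and 6.69% in that model. Beside Notum, the nuclear mediator Lef1 was higher, at 0.39 to 0.75 with Cdk8 knockdown against -0.28 to -0.01 with Med12 knockdown (difference 0.79, SE 0.06, adjusted p = 5.32e-09). The feedback ubiquitin ligase gene Rnf43 was lower (-0.57) in all 4 pairs, and Axin2, a common readout of the pathway, was at -0.25, not called. In the NODAL and TGF-beta list 7 were higher and 2 lower of 24 (median 0.05). The antagonist genes Lefty1 (0.52) and Lefty2 (0.63) and the matrix gene Tgfbi (0.65, SE 0.04) were among those higher. Of 22 BMP and ID genes 6 were lower and 1 higher, 0 of them in all 4 pairs (Id3 -0.43, Id2 0.30, and Id2 -0.11 without shMed12-2).

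Set against Med12 knockdown, more pluripotency genes were called higher than lower with Cdk8 knockdown, but the list median lay below shNTC with both. Klf4, a reprogramming factor, stood at 2.04, 2.01 and 1.95 with shCdk8-1 and 2.08, 1.99 and 1.87 with shCdk8-2, against 1.52, 1.57 and 1.68 with shMed12-1 and 0.71, 0.79 and 0.78 with shMed12-2. No Cdk8 array overlapped a Med12 array, and the difference was 0.81 (SE 0.04, adjusted p = 1.59e-11). The shNTC arrays lay above both groups, at 2.14 to 2.22. Of 30 naive and general pluripotency genes, 8 were higher and 1 lower, with a median of 0.23 (over all genes 8.5% higher, 9.69% lower). But a model with a slide term called 3 higher and 0 lower (over all genes 6.45% and 6.69%), and the refitted background gave a median of 0.10. Of these 30, Klf4 was the 1 gene higher in all 4 pairs. The list medians against shNTC were -0.17 with Cdk8 knockdown and -0.34 with Med12 knockdown. The mean level of the list was 4.01 to 4.09 on the shNTC arrays, 3.775 to 3.966 on the Cdk8 arrays and 3.08 to 3.78 on the Med12 arrays. Gbx2 differed by 0.81 and Esrrb by 0.53, and after the refitted background by 0.57 and 0.33. Both were lost with slide as a block (adjusted p = 0.0698 and 0.151). Pou5f1 (0.28), Sox2 (0.70) and Zfp42 (0.55) were not called, and the refitted background gave 0.12, 0.41 and 0.30, the last 2 called. The cytokine receptor gene Lifr (0.33) and Socs2 (0.49) were among 7 higher of 17 LIF and STAT3 genes, 2 of which were lower.

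Calls among primed and neural genes ran one way, but the Med12 hairpins differed. Over all genes 8.5% were higher and 9.69% lower. Of 19 primed epiblast genes, 8 were higher and 0 lower (median 0.30), 1 of them in all 4 pairs. Their mean level was 2.40 to 2.52 on the Cdk8 arrays, against 1.5 to 1.99 with shMed12-1 and 2.37 to 2.55 with shMed12-2, so of the 4 targeting hairpins shMed12-1 alone lay apart. Wnt8a differed by 0.89 (SE 0.20) and Fgf15 by 0.65 (SE 0.16), both with overlapping arrays, and Fgf15 was lost with slide as a block (adjusted p = 0.0632). Of 33 neural genes, 11 were higher and 0 lower (median 0.16), 0 of them in all 4 pairs. Their mean level with shCdk8-2 (0.78 to 0.90) overlapped that with shMed12-2 (0.86 to 0.95). The Notch ligand gene Dll1 stood at 3.06, 2.72 and 2.65 with shCdk8-1, but at 1.91, 1.90 and 1.75 with shCdk8-2, against 1.21, 1.33 and 0.75 with shMed12-1 and 1.85, 1.88 and 2.02 with shMed12-2. The shCdk8-2 and shMed12-2 arrays overlapped, and the shCdk8-1 arrays were highest (difference 0.83, SE 0.13). Of 24 Notch and HES genes, 8 were higher and 1 lower (median 0.11), 0 of them in all 4 pairs. Notch4 (0.62) was among the higher ones. Their mean level with shCdk8-2 (0.37 to 0.45) overlapped that with shMed12-2 (0.43 to 0.51).

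**Figure D4:**
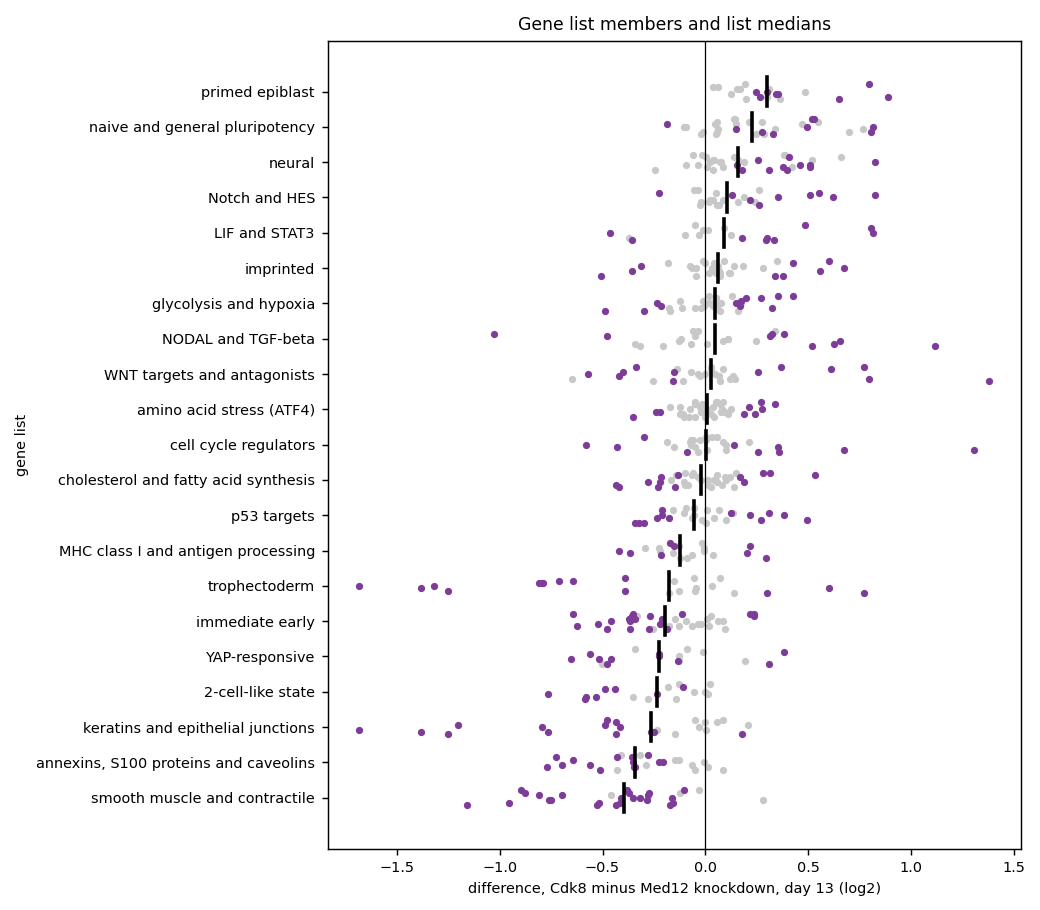
Difference between Cdk8 and Med12 knockdown on day 13 (log2) for the members of 21 gene lists with at least 10 measured members and at least 8 called, ordered by the list median (black bar). Purple points were called at an adjusted p under 0.05 and grey points were not. The contractile list lies lowest (median -0.40), and the primed epiblast list highest (0.30).

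Of 17 genes of the 2-cell-like state, a rare state of ES cultures, 8 were lower with Cdk8 knockdown and 0 higher (median -0.24), 0 of them in all 4 pairs. Over all genes 9.69% were lower and 8.5% higher. After the refitted background 12 were lower (over all genes 11.7%). The list medians against shNTC were -0.44 with Cdk8 knockdown and -0.09 with Med12 knockdown. The mean level was lowest with shCdk8-2 (0.98 to 1.11), whereas shCdk8-1 (1.39 to 1.55) overlapped both shMed12-1 (1.44 to 1.80) and shMed12-2 (1.38 to 1.48), and shNTC stood at 1.65 to 1.69. Tcstv3 stood at 3.35, 3.03 and 2.00 with shCdk8-1 and 2.08, 2.22 and 2.16 with shCdk8-2, against 3.00 to 3.46 on the Med12 arrays and 3.43 to 3.49 on the shNTC arrays. The replicates of shCdk8-1 were far apart, and the groups overlapped (difference -0.77, SE 0.17, adjusted p = 0.00352). Sp110 differed by -0.59 and Gm5662 by -0.58, with a further Gm5662 probe at -0.38, not called (adjusted p = 0.139). P4ha2 (-0.49), a collagen prolyl hydroxylase gene, is also on the hypoxia list. Among 33 germ line genes, 4 were lower and 1 higher, a share called (15.2%) below that over all genes (18.2%), and after the refitted background 10 were lower and 3 higher. Khdc3, of the oocyte's maternal complex, ran from 3.89 to 4.78 against 4.19 to 5.36 with Med12 knockdown (difference -0.66, and -0.86 after the refitted background), and Stra8, a gene of meiotic entry, was higher (0.72, with its Cy3 signal higher by 0.32, adjusted p = 0.00124). For Stra8 the shMed12-2 arrays lay lowest (4.16 to 4.25), whereas shMed12-1 (4.58 to 5.19) overlapped shCdk8-1 (5.10 to 5.30).

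The counts of the remaining lists stand against 8.5% higher and 9.69% lower over all genes. Interferon response genes gave 3 higher and 2 lower of 38, MHC class I and antigen processing 3 and 5 of 20, the unfolded protein response 2 and 2 of 24, ATF4 stress genes 6 and 3 of 37, and p53 targets 6 and 7 of 27. DNA replication and mitosis gave 5 higher and 1 lower of 32, ribosome biogenesis 2 and 4 of 31, MYC and MAX 3 and 0 of 11, glycolysis and hypoxia 8 and 4 of 32, and cholesterol and fatty acid synthesis 5 and 8 of 35. ERK feedback genes gave 4 higher and 3 lower of 18, imprinted genes 6 and 3 of 33, and DNA methylation and TET genes 4 and 1 of 15. Laminins and collagen IV gave 2 and 5 of 17, mesoderm 1 and 3 of 21, blood and endothelial markers 4 and 0 of 18, and cadherins and EMT factors 1 and 2 of 20. HOX genes gave 5 higher and 0 lower of 25 (10 and 0 after the refitted background, 3 and 0 in the model with a slide term). The medians of these lists lay between -0.12 and 0.13. Named by the same rule, Myc (0.34) differed through shCdk8-2, at -0.84, -0.78 and -0.70, whereas shCdk8-1 (-1.44 to -1.33) lay within the range of the Med12 arrays (-1.52 to -1.33). The proteasome gene Psmb8 (0.30, but 0.21 and not called in a further probe and -0.31 without shMed12-1), the topoisomerase gene Top2a (0.38), the cholesterol exporter gene Abca1 (0.53), the imprinted gene Mest (0.56), the HOX gene Hoxb2 (0.49) and Dnmt3a (0.25, further probes 0.16 and 0.36) were other called members. For Mest and Hoxb2 the shCdk8-2 arrays overlapped the shMed12-2 arrays.

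All 413 genes of the 4 pairs stayed called in the mean difference with slide as a block. With that block, under which 13.1% of all genes were called, 52 genes were higher and 55 lower in all 4 pairs. The refitted background called 22.6% of all genes (10.9% higher, 11.7% lower). Its counts over the 4 pairs were 298 higher (1.33%) and 332 lower (1.48%), 2.81% together, and kept 187 and 218 of the genes above.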

How the data were processed

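Per the labels' protocols, RNA was labelled with Cy5 and hybridised with a Cy3-labelled universal reference on every array, without dye swaps. The submitters' processing notes name Agilent Feature Extraction 10.7. Per the file headers, its output gives spot and local background intensities and a log10 ratio of Cy5 to Cy3. A table deposited by the authors gives log2 ratios, which matched those of the scanner output with a slope of 1. Depth does not apply, and the number of arrays limits the precision.

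Intensities were corrected with normexp (offset 50), ratios were normalized by loess within each array, and spots of a probe were averaged. Control and outlier spots were left out. Of 41174 probes, 28303 were kept because every array of at least 1 group had them well above background in Cy5, and the brightest stood for its gene, giving 22394 genes. Of these, 13737 had a symbol through RefSeq accessions. Nanog, Med13 and Med12l had no matched probe. Limma 3.58.1 in R 4.3.3 fitted 8 group means to 24 arrays (16 residual degrees of freedom), with Benjamini-Hochberg adjustment over all genes. The test was also run on data simulated from the means and spread of the main fit, without differences between the hairpins of a target. Alternatives covered background correction, normalization, the filter on dim probes, the probe chosen, slide and replicate blocks, and arrays or hairpins left out.

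Members and gene lists were chosen with earlier results of these data known. Named are the kinase module, the 15 highest and 15 lowest genes called in all 4 hairpin pairs without overlap of arrays, up to 3 called members of each list, and genes called in opposite directions against shNTC. The highest, lowest and opposite genes were sought only among genes with a symbol. Other list members are named to show a list's range and were chosen after their values were seen. One gene that this rule names is not reported here.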

Additional observations from a re-analysis of the deposited data

Results flagged for a closer look

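Against shNTC, 3 of the 13737 genes with a symbol were called in opposite directions with both hairpins of each target. Armcx1, an X-linked armadillo repeat gene, stood at 1.33, 1.35 and 1.39 with shCdk8-1 and 1.12, 1.15 and 1.11 with shCdk8-2, against 0.39, 0.39 and 0.28 with shMed12-1 and 0.75, 0.73 and 0.69 with shMed12-2. The shNTC arrays lay between, at 0.85 to 1.04. It rose by 0.30 with Cdk8 knockdown and fell by 0.41 with Med12 knockdown, and the difference, tested in the same limma fit, was 0.70 (SE 0.03, adjusted p = 1.59e-11). Bnip3, a mitophagy gene induced by low oxygen, rose by 0.24 and fell by 0.18 (difference 0.43, SE 0.04, adjusted p = 8.16e-08). Rnpep, an aminopeptidase gene, fell by 0.21 with Cdk8 knockdown and rose by 0.26 with Med12 knockdown (difference -0.47, SE 0.04, adjusted p = 1.99e-08). In all 3 genes the 6 Cdk8 arrays and the 6 Med12 arrays lay on opposite sides of the shNTC arrays.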

How the results depend on the processing

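Of 990 recomputed values for the 15 highest and 15 lowest genes, 934 kept direction and call, 40 lost the call, 16 had no test and moved by more than the spread between replicates, and 0 turned. Because these genes were chosen for passing in all 4 pairs without overlap, leaving out 1 array or hairpin could not turn a sign. With hairpin means as replicates, all 30 lost the call. Genes higher and lower in all 4 pairs numbered 303 and 357 without background correction, 373 and 375 in the scanner's log ratios, 382 and 377 in the authors' value table, 298 and 332 after the background refit, 52 and 55 with a slide block, 21 and 28 with scale normalization, and 29 and 12 with median centring instead of loess (70.7% higher, against 46.2%). Genes called in the mean difference were 900 with median centring, 1279 with scale normalization and 0 with hairpin means as replicates, where Cdk8 (-0.75, adjusted p = 0.783) and Med12 (1.04, adjusted p = 0.404) also lost their calls. Cdk8 was -0.92 as the mean within slides, which weights the hairpins unequally. Leaving out each array in turn gave 3433 to 4064 called genes, 144 to 186 genes higher and 153 to 221 lower in all 4 pairs, Cdk8 at -0.78 to -0.73 and Med12 at 1.01 to 1.07. Leaving out a hairpin gave 3352 (shCdk8-1), 3867 (shCdk8-2), 3133 (shMed12-1) and 5289 (shMed12-2). Counts over 4 pairs cannot be had with a hairpin left out or with hairpin means. With the replicate number as a block, 4018 genes were called, 189 higher and 214 lower in all 4 pairs. Deviations of same-numbered arrays correlated at -0.26 to 0.33 over 18 pairs (median -0.09). Those of differently numbered arrays correlated at -0.37 to 0.32 over 36 pairs (median 0.02). These values show no pairing by number, but deviations from a mean of 3 arrays cannot exclude it.

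Signs turned under scale normalization for Esrrb (-0.31), Col1a1 (0.31), Col5a1 (0.060), B2m (0.44), Ankrd1 (0.11), Cebpb (0.016), Ero1a (0.36), Dkc1 (-0.021), Phlda2 (-0.27), Mest (-0.28), Stra8 (-0.056), Dnmt3a (-0.041) and S100a6 (0.0058). Ccnc, not called, turned to 0.038 in the scanner's log ratios and the authors' table, to 0.040 in Cy5 alone, to 0.018 without shMed12-2, and ran from -0.0436 to 0.014 with 1 array left out. Tek turned to -0.068 in Cy5 alone and Cd34 to -0.056 within slides. Without shMed12-1, Psmb8 was -0.31 and Bmp8b 0.066. Without shMed12-2, Cd34 was -0.14, Irgm1 0.040 and Id2 -0.11. The cause of these changes was not tested. Dim probes and the 3 arrays per hairpin limit the precision.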
